A study of Mus musculus with 2 samples.

Results

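The BCL2 family sets whether a cell releases cytochrome c from its mitochondria and dies. Its transcripts were followed here for 10 of the 32285 genes counted, which were picked by symbol: the anti-apoptotic genes Bcl2, Bcl2l1 (BCL-XL), Mcl1 and Bcl2a1b (A1), the pore-forming effectors Bax and Bak1, and the BH3-only genes Bcl2l11 (BIM), Bbc3 (PUMA), Pmaip1 (NOXA) and Bid. All 10 symbols stood on a single row of both matrices. Anti-apoptotic proteins hold BAX and BAK in check, and BH3-only proteins are the damage and starvation sensors that bind the anti-apoptotic proteins or the effectors. Lymphocytes are known to lean on BCL2 when they are fed by cytokines such as IL-7 and IL-15, granulocytes on MCL1 and A1, and p53 is known to raise PUMA, NOXA and BAX after DNA damage.

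The cells had been sorted for CD45 from tumors of MC38, a colon carcinoma line of the mouse, and read by single-cell RNA sequencing. The Control library came from untreated tumors and the IR library from tumors given 20 Gy in 1 dose, 4 days before collection. Both groups carried the genotype label WT, a name that the study gives in its tumor experiments to Ythdf2 fl/fl mice without Cre, and each library held several pooled tumors. There was therefore 1 library per group and no replicate, so no test between the groups was possible, and every interval below covers counting error only.

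A UMI (unique molecular identifier) counts 1 captured RNA molecule. Barcodes with at least 1000 UMIs and at most 25% mitochondrial UMIs were kept, 4679 in Control and 3411 in IR, with medians of 7302 and 8266 UMIs, and 6 barcode sequences occurred in both. Each barcode was put in a lineage by its marker genes, which placed 3822 Control and 2758 IR barcodes. UMIs were summed per lineage and library and divided by that sum, on the usual CPM scale. Fewer cells that express a gene and less RNA of it per cell cannot be told apart in such sums. The kit reads 3′ ends, so CPM was not divided by gene length, and levels of different genes are set side by side only as shares of UMIs.

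Monocytes (812 Control and 1136 IR barcodes), macrophages (1962 and 431), DCs (207 and 219), T cells (362 and 221), NK cells (323 and 393) and collagen-expressing cells (85 and 95) had at least 50 barcodes in both libraries and were compared. Neutrophils (35 and 200) and basophils or mast cells (36 and 63) were under 50 in Control, so they are described and no ratio is given. The gates went with defining markers that were not all used to set them. Ptprc, which encodes CD45, was at 225 to 954 CPM in the 5 compared immune lineages, and at 10.7 CPM (Control) and 1.88 CPM (IR) in the collagen-expressing cells, which therefore lacked the sorted antigen's transcript. Those cells had Sparc at 1887 and 1598 CPM, Col3a1 at 2030 and 1151 CPM, and Col1a1 at only 34.9 and 24.1 CPM. The samples also carry the narrower label CD45+CD11b+Ly6Chi, which the T, NK and DC populations do not meet: Itgam, which encodes CD11b, was at 6.33 to 51.2 CPM in these against 347 to 532 CPM in monocytes and macrophages.

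The lineages differed far more in their BCL2 family transcripts than the libraries did, as the heat map of CPM by lineage shows. Bcl2 was a lymphocyte transcript, Bcl2a1b was highest in DCs and IR neutrophils, Mcl1 was high in IR neutrophils and monocytes, and Pmaip1 was high in DCs. Bax and Bak1 were spread more evenly. RNA freed from broken cells was small beside these levels. Genes of other lineages put its share at 0.384% to 6.27% of the UMIs of a compared lineage. Among 120 combinations of member, compared lineage and library, the level was within 2-fold of what this share would give in 2, both of them Bcl2a1b in the collagen-expressing cells, and at least 5.46 times it in all others.

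**Figure D1:**
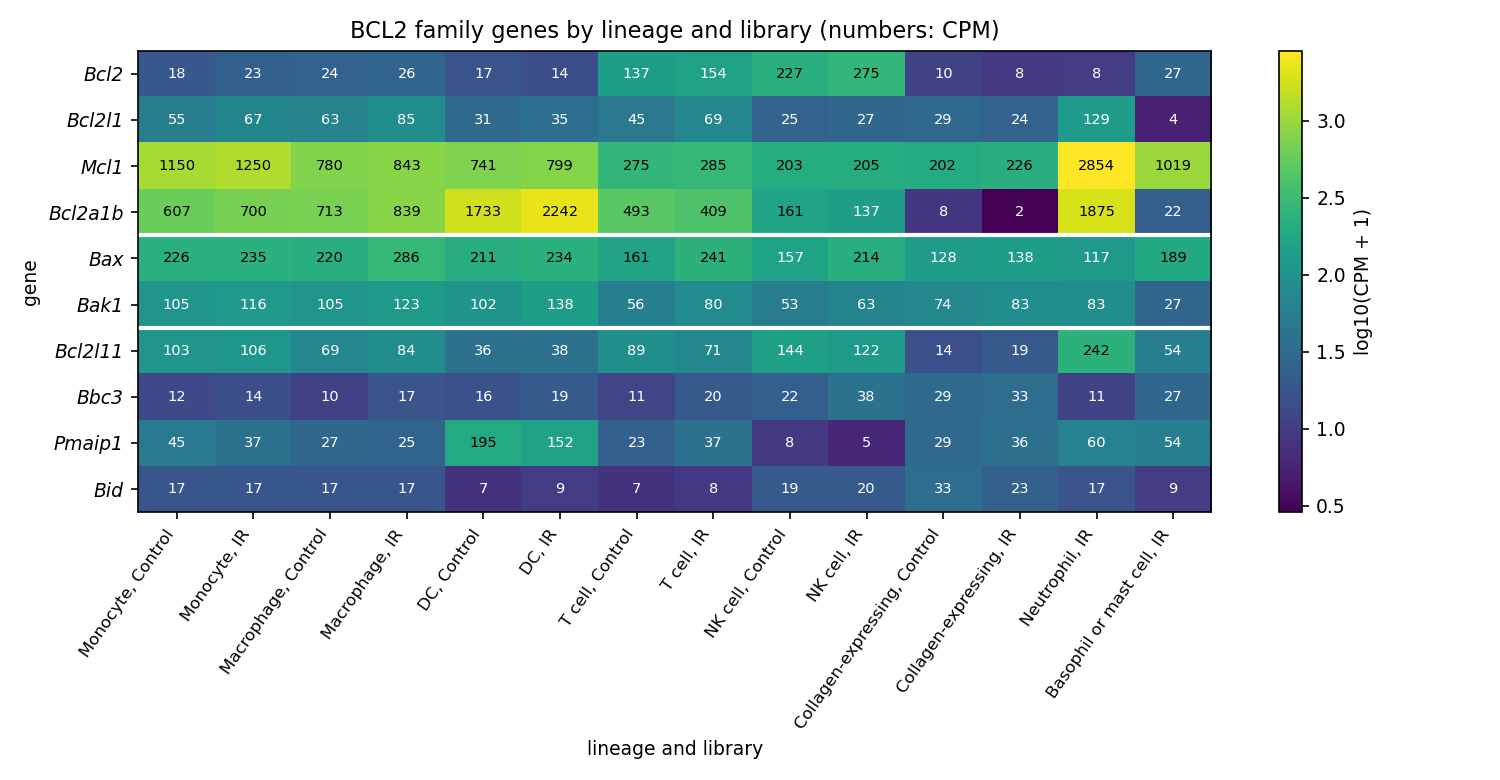
CPM of the 10 genes (rows, grouped as anti-apoptotic, effector and BH3-only) in each lineage and library (columns), with the CPM printed in each cell and the colour on a log10 scale; values of different genes are not scaled to transcript length. Bcl2 stands out in NK and T cells, Bcl2a1b in DCs and IR neutrophils, and Pmaip1 in DCs.

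Bcl2, the founding anti-apoptotic gene, was at 227 CPM in NK cells of the Control library and 275 CPM in those of IR, and at 137 and 154 CPM in T cells. The next lineages were basophils or mast cells at 26.9 CPM (6 UMIs, IR) and macrophages at 24.2 and 26.2 CPM. Monocytes stood at 18.4 and 23.0 CPM, DCs at 16.7 and 14.0 CPM and collagen-expressing cells at 10.2 and 8.14 CPM. The ranges of the libraries did not overlap between NK and T cells or between T cells and any lineage below. Within T cells, CD8 T cells had 172 and 141 CPM, and Foxp3 T cells had 2 UMIs among 34 Control barcodes and 0 among 10 IR barcodes. Within DCs, those with Ccr7 and Fscn1, the genes of migrating mature DCs, had 1 Bcl2 UMI in Control and 5 in IR, or 0.969 and 3.13 CPM, while the Xcr1 and Clec9a DCs had 15 UMIs in only 23 Control barcodes. Control neutrophils had 0 Bcl2 UMIs of 194050 and IR neutrophils 7, or 8.42 CPM.

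Bcl2l1 was highest in IR neutrophils at 129 CPM from 107 UMIs, and the 35 Control neutrophils had 7 UMIs. Macrophages were at 62.5 CPM (Control) and 84.6 CPM (IR), monocytes at 54.6 and 66.9 CPM, and T cells 44.7 and 69.1 CPM, and the ranges of these 3 overlapped. DCs had 30.5 and 34.5 CPM, collagen-expressing cells 29.5 and 24.1 CPM and NK cells 25.2 and 27.1 CPM. NK cells thus combined the top Bcl2 level with one of the lowest Bcl2l1 levels. Foxp3 T cells showed the opposite pair, with 19 Bcl2l1 UMIs beside their 2 Bcl2 UMIs in Control, where the CD8 T cells had 51 Bcl2l1 and 185 Bcl2 UMIs.

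Mcl1 encodes a short-lived anti-apoptotic protein. It was at 2854 CPM in IR neutrophils (2372 UMIs), and the 35 Control neutrophils had 1293 CPM (251 UMIs). Monocytes followed with 1150 and 1250 CPM, basophils or mast cells with 1019 CPM in IR, macrophages with 780 and 843 CPM and DCs with 741 and 799 CPM. T cells had 275 and 285 CPM, collagen-expressing cells 202 and 226 CPM and NK cells 203 and 205 CPM, so the lymphocytes stood well below every myeloid lineage.

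Bcl2a1b, a copy of the NF-κB target gene A1, was at 1733 CPM in Control DCs, 2242 CPM in IR DCs and 1875 CPM in IR neutrophils. In DCs it lay mainly in the Ccr7 and Fscn1 DCs, which had 2612 and 3102 CPM. The Xcr1 and Clec9a DCs had 149 of the 3011 DC UMIs in Control and 39 of 5132 in IR, and the Cd209a DCs 122 and 106. Macrophages had 713 and 839 CPM, monocytes 607 and 700 CPM, T cells 493 and 409 CPM and NK cells 161 and 137 CPM. Basophils or mast cells, which are also granulocytes, had 5 UMIs in IR, or 22.4 CPM. In the collagen-expressing cells 7.51 and 1.88 CPM were found where free RNA alone would give 6.03 and 2.58 CPM, which is background.

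Bcl2a1b has near-identical copies on chromosome 9, Bcl2a1a and Bcl2a1d, and a read that matches more than 1 gene is not counted by Cell Ranger. The sequences are shown because they set how far the Bcl2a1 counts can be told apart. The coding sequences of the 3 copies are 516 bases each in GENCODE vM21 (GRCm38) and differ at 12 positions. Of these, 4 lie in the last 120 bases of the first coding exon, and capitals mark them here, at Bcl2a1a chr9:88957351-88957470 (+ strand), Bcl2a1b chr9:89199660-89199779 (+ strand), Bcl2a1d chr9:88731300-88731419 (- strand):
Bcl2a1a: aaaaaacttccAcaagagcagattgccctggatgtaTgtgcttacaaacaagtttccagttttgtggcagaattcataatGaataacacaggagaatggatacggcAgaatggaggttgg
Bcl2a1b: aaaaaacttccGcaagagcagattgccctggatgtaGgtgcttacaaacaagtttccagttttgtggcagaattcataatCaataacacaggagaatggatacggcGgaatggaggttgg
Bcl2a1d: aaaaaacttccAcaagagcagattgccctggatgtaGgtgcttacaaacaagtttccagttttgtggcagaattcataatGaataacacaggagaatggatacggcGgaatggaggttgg

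The last coding exon without its stop codon, which is nearest to the 3′ end that the kit reads, is 96 bases long and holds 1 differing position, at Bcl2a1a chr9:88962172-88962267 (+ strand), Bcl2a1b chr9:89207582-89207677 (+ strand), Bcl2a1d chr9:88723437-88723532 (- strand):
Bcl2a1a: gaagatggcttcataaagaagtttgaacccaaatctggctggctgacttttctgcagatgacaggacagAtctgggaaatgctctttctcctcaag
Bcl2a1b: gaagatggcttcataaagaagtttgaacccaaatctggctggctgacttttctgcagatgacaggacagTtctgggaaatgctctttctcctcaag
Bcl2a1d: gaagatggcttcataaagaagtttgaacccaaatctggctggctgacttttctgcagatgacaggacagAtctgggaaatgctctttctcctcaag

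Of all 90-base words in the last 500 bases of the transcript, 39.4% of Bcl2a1b, 39.7% of Bcl2a1a and 65.2% of Bcl2a1d also occur in another gene that the matrices count. The same share was 0 for each of the other 9 members. The levels of the Bcl2a1 copies are therefore lower limits and their proportions uncertain. Across lineages the copies did not keep 1 proportion, as the plot of their shares shows. Bcl2a1a took 13.9% to 18.6% of the UMIs of the 3 copies in monocytes, macrophages and DCs. In T cells it took 1.15% in Control (17 of 1478 UMIs, 95% exact binomial interval 0.671% to 1.84%) and 2.24% in IR (25 of 1115, 1.46% to 3.29%). In NK cells it took 1.14% (8 of 703) and 0.251% (2 of 796). Bcl2a1d, by contrast, took 31.0% and 34.0% in T cells and 40.5% and 31.0% in NK cells, above its 20.4% to 27.3% in monocytes, macrophages and DCs. Bcl2a1a in NK cells, at 3.15 and 0.501 CPM, was at the level that free RNA would give (2.60 and 1.38 CPM).

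**Figure D2:**
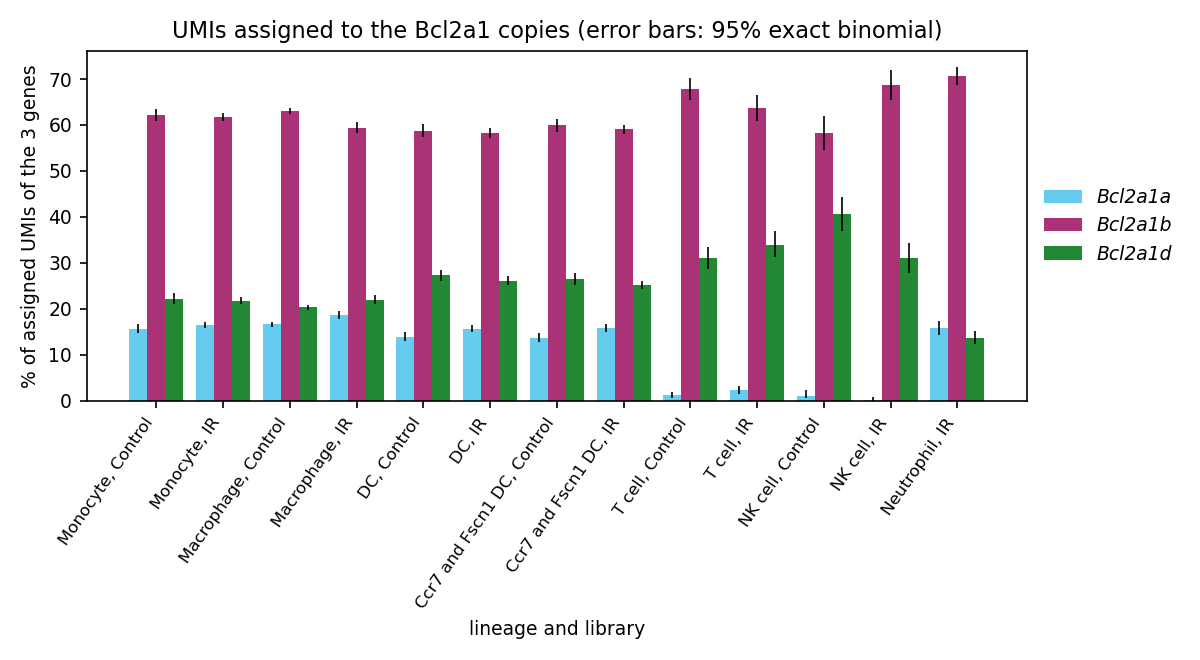
Share of the UMIs assigned to Bcl2a1a, Bcl2a1b and Bcl2a1d (y axis, % of the 3 together) by lineage and library, with error bars for 95% exact binomial intervals. Bcl2a1a makes up 13.7% to 18.6% in the myeloid populations and at most 2.24% in T and NK cells.

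The make-up of the anti-apoptotic transcripts differed between lineages in both libraries. In NK cells Bcl2 held 36.8% of the UMIs of the 4 genes in Control and 42.7% in IR, Mcl1 33.0% and 31.9%, and Bcl2a1b 26.2% and 21.3%. In T cells Bcl2a1b held 51.9% and 44.6%, Mcl1 29.0% and 31.1%, Bcl2 14.4% and 16.8%, and Bcl2l1 4.71% and 7.53%. In monocytes Mcl1 and Bcl2a1b together left 1.01% and 1.13% to Bcl2. DCs were dominated by Bcl2a1b, with 68.7% and 72.6%, and basophils or mast cells by Mcl1, with 94.98% of 239 UMIs in IR. Collagen-expressing cells had 81.1% and 86.9% Mcl1 and 11.8% and 9.28% Bcl2l1. Capture may differ between genes, so these shares compare lineages and not the abundance of the proteins.

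**Figure D3:**
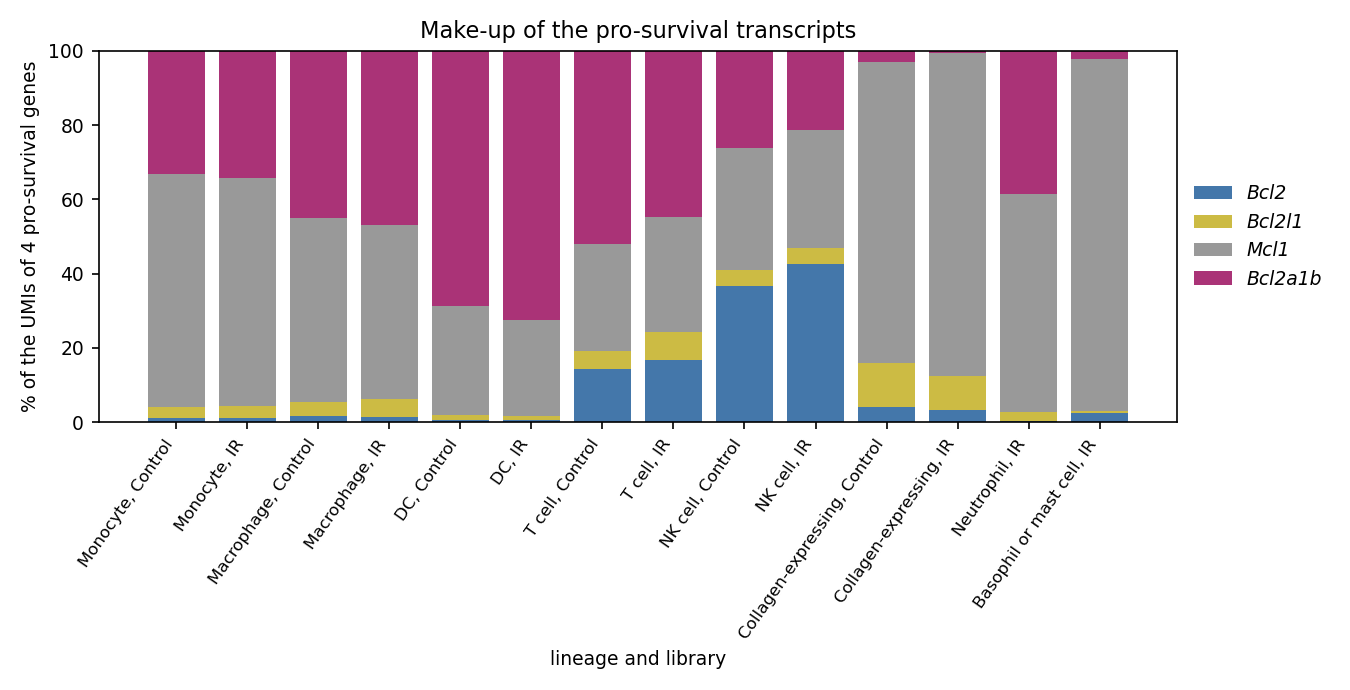
Share of the UMIs of 4 anti-apoptotic genes taken by each (stacked bars, %), by lineage and library; neutrophils and basophils or mast cells are shown for IR only. Bcl2 is visible mainly in T and NK cells, and Bcl2a1b takes 68.7% and 72.6% in DCs.

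Bax and Bak1 encode the proteins that open the outer mitochondrial membrane. Among the compared lineages Bax ranged from 128 CPM in Control collagen-expressing cells to 286 CPM in IR macrophages, and Bak1 from 53.2 CPM in Control NK cells to 138 CPM in IR DCs. Neighbouring lineages in the order of Bax overlapped from macrophages down to NK cells. Bax made up 62.3% to 77.3% of the Bax and Bak1 UMIs in each compared lineage and library, with the highest shares in NK cells (74.7% and 77.3%) and T cells (74.4% and 75.1%).

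The BH3-only genes each had their own pattern. Bcl2l11, which encodes the BIM protein that BCL2 binds, was at 242 CPM in IR neutrophils, 144 and 122 CPM in NK cells, 103 and 106 CPM in monocytes, 88.9 and 71.4 CPM in T cells and 68.7 and 83.7 CPM in macrophages. It was at 36.3 and 38.0 CPM in DCs, with 1 UMI in each library in the Xcr1 and Clec9a DCs, and at 14.5 and 19.1 CPM in collagen-expressing cells. Pmaip1 was at 195 and 152 CPM in DCs and at most 45.3 CPM in the other compared lineages, with 8.27 and 5.26 CPM in NK cells. Bid, which caspase-8 and granzyme B cleave, ranged from 6.88 CPM in Control T cells to 32.7 CPM in Control collagen-expressing cells. Bbc3 was at 9.95 to 38.1 CPM, with NK and collagen-expressing cells at the top.

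Set against its partner Bcl2l11, Bcl2 outnumbered it only in the sums of T and NK cells among the compared lineages. In T cells Bcl2 made up 60.6% of the UMIs of both in Control (278 of 459, 95% exact binomial interval 55.9% to 65.1%) and 68.3% in IR (267 of 391, 63.4% to 72.9%). In NK cells it made up 61.2% (576 of 941, 58.0% to 64.3%) and 69.3% (1098 of 1585, 66.9% to 71.5%). The intervals of the libraries were apart in NK cells and overlapped in T cells. The make-up of the NK cells differed between the libraries. A cluster of NK cells held 180 Control and 118 IR barcodes, and another 188 and 292. The part of this in the NK share was not tested. In CD8 T cells alone the shares were 64.5% and 66.9%, so the difference was smaller there. Monocytes had 15.2% and 17.8%, macrophages 26.1% and 23.8% and DCs 31.5% and 26.9%, and the plot of this share shows a gap between these and the lymphocytes. IR neutrophils had 3.37% (7 of 208).

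**Figure D4:**
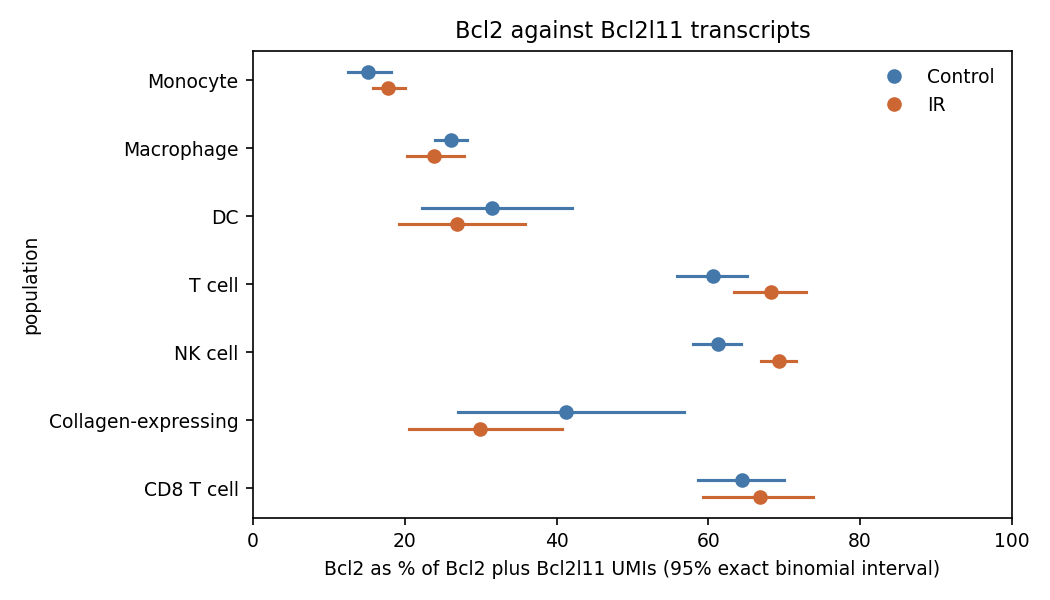
Bcl2 UMIs as a percentage of Bcl2 plus Bcl2l11 UMIs (x axis) in 6 lineages and CD8 T cells (y axis), Control in blue and IR in orange, with 95% exact binomial intervals. NK cells are at 61.2% in Control and 69.3% in IR, and the highest value of monocytes, macrophages and DCs is 31.5%. Collagen-expressing cells are at 41.3% in Control and 29.9% in IR.

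Between the libraries the differences were modest. A gene was counted in a lineage when it had at least 50 UMIs over both libraries, and called when its CPM differed by 1.5-fold or more. Of 60 combinations of member and compared lineage, 55 were counted, 5 were called higher in IR and 0 lower. Bbc3 accounted for 3 of the 5 (NK cells, T cells and macrophages), and Bcl2l1 and Pmaip1 in T cells for the others. In T cells 3 of 9 counted members were higher, where 4.7% of all 6510 counted genes were. NK cells had 1 of 9 (3.77% of all genes) and macrophages 1 of 10 (5.91%), while monocytes had 0 of 10 (6.22%), DCs 0 of 9 (6.87%) and collagen-expressing cells 0 of 8 (6.26%). Lower calls, of which the members had none, were made for 6.43% of all genes in monocytes, 10.4% in macrophages, 7.38% in DCs, 7.02% in T cells, 7.6% in NK cells and 6.92% in collagen-expressing cells. No test across members was made, and a count of 3 rests on single libraries. The median log2 ratio of IR over Control of the counted members was 0.53 in T cells, where that of all genes was -0.03, and 0.10 to 0.24 in the other 5 lineages, where all genes had -0.07 to 0.00.

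**Figure D5:**
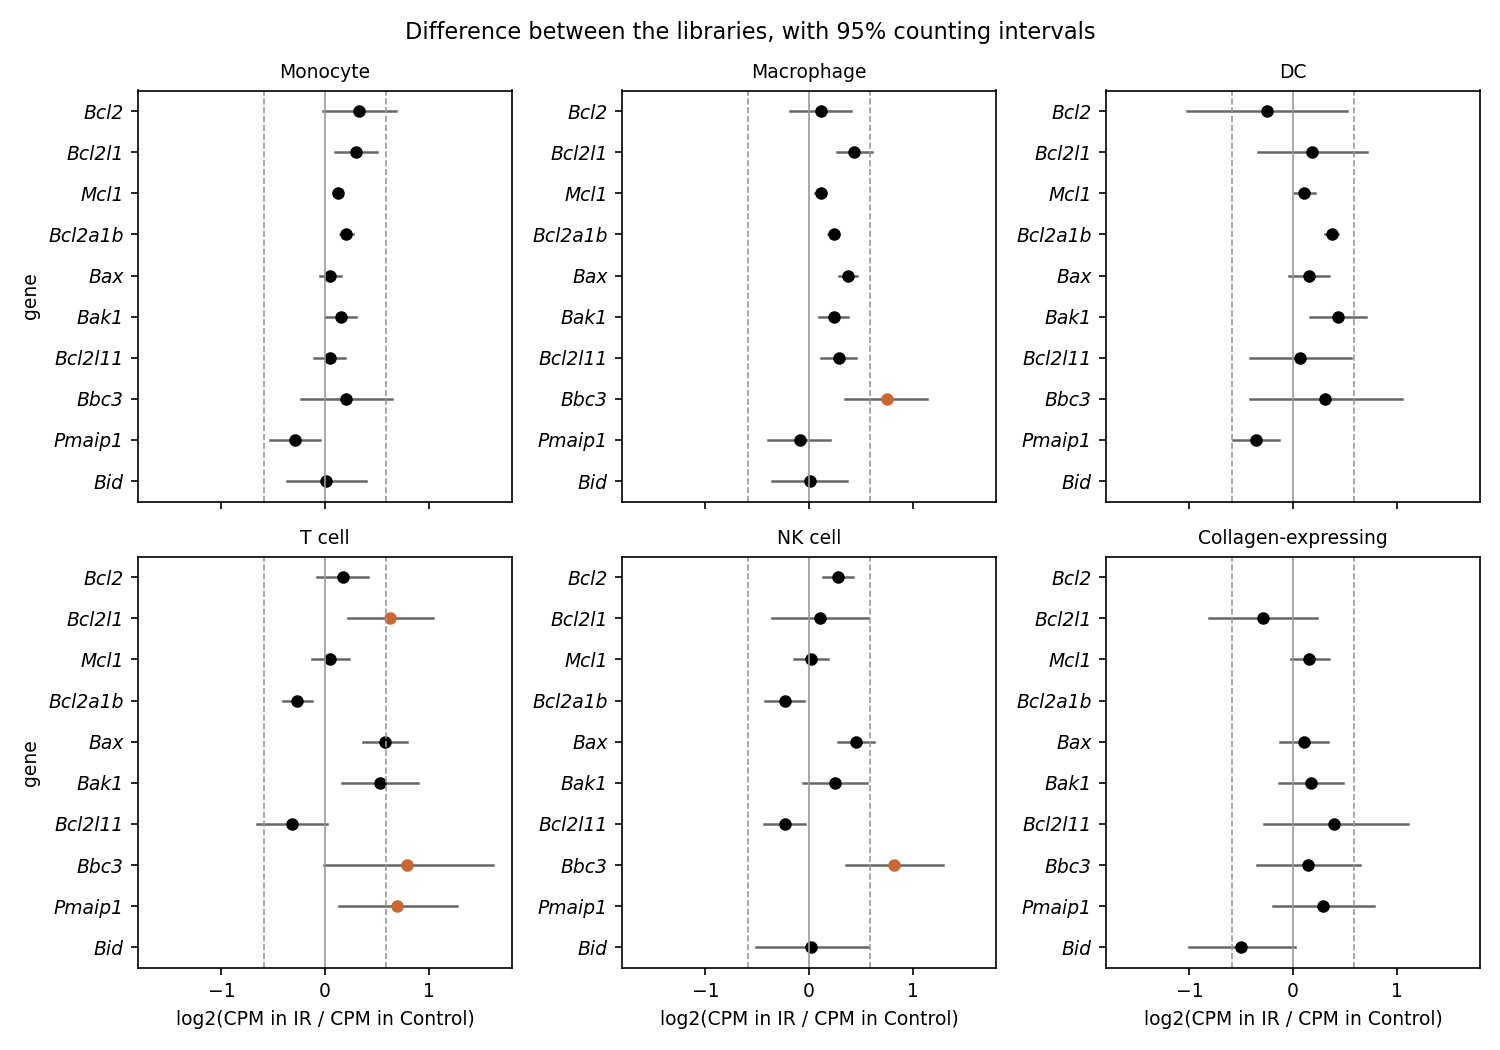
Log2 ratio of the CPM in IR over that in Control (points) with 95% exact counting intervals (lines) for the 10 genes in 6 lineages; the dashed lines mark 1.5-fold, orange points are called, and genes under 50 UMIs are left out. Bbc3 lies beyond the upper dashed line in macrophages, T cells and NK cells.

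Bbc3 encodes PUMA, which binds every anti-apoptotic member. In NK cells it went from 21.7 CPM (55 UMIs) in Control to 38.1 CPM (152 UMIs) in IR, a log2 ratio of 0.81 (95% interval 0.36 to 1.29). In macrophages it went from 9.95 CPM (177 UMIs) to 16.7 CPM (79 UMIs), a log2 ratio of 0.75 (0.35 to 1.14). The macrophage gate did not hold like cells in both libraries, which touches every macrophage ratio given here: Ly6c2 was at 51.0 and 314 CPM, Itgam at 347 and 532 CPM and C1qa at 2769 and 2105 CPM. The monocyte gate differed too, with Ly6c2 at 783 and 1558 CPM. So did the NK gate, which touches every NK ratio given here, with Ncr1 at 271 and 204 CPM and Ly6c2 at 456 and 340 CPM. With lineages from clusters, monocyte log2 ratios moved from 0.29 to 0.61 for Bcl2l1, from 0.15 to 0.41 for Bak1 and from 0.32 to -0.04 for Bcl2. The part of these differences in the ratios was not tested. In T cells 23 and 34 UMIs gave 11.3 and 19.6 CPM and a log2 ratio of 0.79, with an interval of -0.01 to 1.62 that included no difference. Monocytes (12.3 and 14.1 CPM), DCs (15.5 and 19.2 CPM) and collagen-expressing cells (29.5 and 32.5 CPM) had log2 ratios of 0.20, 0.31 and 0.14, and their intervals reached from below 0 to 0.64 or more. CD8 T cells had 14 and 12 Bbc3 UMIs, so a difference was not detectable there at this depth. When cells were grouped by clusters, the log2 ratio in NK cells was 0.57, just under 1.5-fold, and with cycling cells left out Bbc3 in T cells fell under 50 UMIs and was not counted.

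Bax was not called in any of the 6 lineages. Its log2 ratio was above 0 in each, but the interval included 0 in monocytes, DCs and collagen-expressing cells. T cells lay just under the threshold, with 161 CPM (Control), 241 CPM (IR) and a log2 ratio of 0.58 (95% interval 0.37 to 0.79). NK cells had 157 and 214 CPM (log2 ratio 0.45, 0.28 to 0.63) and macrophages 220 and 286 CPM (0.38, 0.29 to 0.47). Monocytes had 226 and 235 CPM (0.05, -0.05 to 0.15), DCs 211 and 234 CPM (0.15, -0.04 to 0.35) and collagen-expressing cells 128 and 138 CPM (0.10, -0.13 to 0.34). The value turned to -0.01 in monocytes with mitochondrial and ribosomal protein genes left out of the total. In collagen-expressing cells it turned to -0.16 with cycling cells left out. In CD8 T cells Bax was at 147 CPM (159 UMIs) and 262 CPM (217 UMIs), a log2 ratio of 0.83 (0.53 to 1.13), which was called. Bak1 went the same way, with 55.5 and 80.0 CPM in T cells (0.53, 0.16 to 0.90), 51.0 and 78.4 CPM in CD8 T cells (0.62, 0.08 to 1.16) and 102 and 138 CPM in DCs (0.43, 0.17 to 0.71).

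In CD8 T cells, 3 of 8 counted members were called higher (Bax, Bak1 and Pmaip1) where 6.27% of 4463 genes were, and 0 lower (6.36% of genes). In the Ccr7 and Fscn1 DCs, 0 of 8 were called in either direction, where 9.93% of 4945 genes were higher and 6.73% lower. The 95 IR CD8 T cells came from the same 221 T cell barcodes, so these values are not independent of those of T cells.

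Pmaip1 differed in direction between lineages. T cells had 23.1 CPM (47 UMIs) in Control and 37.4 CPM (65 UMIs) in IR, a log2 ratio of 0.70 (0.13 to 1.27), and CD8 T cells 25.04 and 45.8 CPM (0.87, 0.12 to 1.64). The T cell value did not hold under another grouping: with T cells taken from clusters it was -0.04. DCs had 195 and 152 CPM (-0.36, -0.58 to -0.14) and monocytes 45.3 and 37.0 CPM (-0.29, -0.53 to -0.05). In NK cells 21 and 21 UMIs were too few to be counted.

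Bcl2l1 was called in T cells, with 44.7 CPM (91 UMIs) and 69.1 CPM (120 UMIs) and a log2 ratio of 0.63 (0.22 to 1.04). CD8 T cells were not called (0.54, -0.03 to 1.11), with 51 and 57 UMIs. The CD4 T cells without Foxp3 held 4 of the 91 UMIs in 38 Control barcodes (30.5 CPM, 8.30 to 78.0) and 30 of the 120 UMIs in 24 IR barcodes (159 CPM, 108 to 228). With the mean of per-cell CPM the T cell value was 0.31 and no longer called. Macrophages had 62.5 and 84.6 CPM (0.44, 0.27 to 0.60) and monocytes 54.6 and 66.9 CPM (0.29, 0.09 to 0.50). In NK cells the interval was -0.36 to 0.57 around 0.10. Bcl2, in turn, had its clearest difference in NK cells, at 0.28 (0.13 to 0.43), with 0.17 (-0.08 to 0.42) in T cells and -0.28 (-0.63 to 0.06) in CD8 T cells.

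Bcl2l11 was lower in IR NK cells, at -0.24 (-0.43 to -0.04), and at -0.32 (-0.66 to 0.02) in T cells, and higher in IR macrophages, at 0.29 (0.12 to 0.45). The macrophage value turned to -0.21 when lineages were taken from clusters. In monocytes (0.04, -0.10 to 0.20) and DCs (0.07, -0.42 to 0.56) the interval of Bcl2l11 included 0. Bcl2a1b also differed in direction between lineages. It was at -0.27 (-0.41 to -0.13) in T cells and -0.24 (-0.42 to -0.05) in NK cells, and at 0.21 (0.15 to 0.27) in monocytes, 0.24 (0.18 to 0.29) in macrophages and 0.37 (0.31 to 0.44) in DCs. These directions were not shared by all subsets. Within DCs the Ccr7 and Fscn1 DCs were at 0.25 (0.18 to 0.32) and made up 128 of 207 Control and 154 of 219 IR barcodes. The Cd209a DCs went down, from 397 CPM (330 to 474) in 39 Control barcodes to 216 CPM (176 to 261) in 47 IR barcodes. The Xcr1 and Clec9a DCs had 548 CPM (464 to 644) in 23 Control barcodes and 369 CPM (262 to 505) in 9 IR barcodes. Within T cells the CD8 T cells were at -0.09 (-0.28 to 0.10). The CD4 T cells without Foxp3 had 503 CPM (66 UMIs, 389 to 640) in 38 Control barcodes and 558 CPM (105 UMIs, 456 to 676) in 24 IR barcodes, with overlapping intervals. Bcl2a1d, a copy of Bcl2a1b, had 112 and 61.9 CPM in NK cells (-0.86, -1.11 to -0.61). In T cells it had 225 and 218 CPM (-0.05, -0.25 to 0.15), so the lower T cell value of Bcl2a1b was not seen in this copy. Bcl2a1d was above 0 in monocytes (0.19), macrophages (0.43) and DCs (0.32), as was Bcl2a1a (0.30, 0.49 and 0.55). Mcl1 hardly differed, with log2 ratios of 0.02 to 0.16 in the 6 lineages. In monocytes, with 6065 and 12817 UMIs, its interval was 0.08 to 0.16. Bid was at 17.1 and 17.2 CPM in monocytes (-0.37 to 0.39), 17.2 and 17.3 CPM in macrophages (-0.36 to 0.37) and 19.3 and 19.5 CPM in NK cells (-0.52 to 0.56). In collagen-expressing cells it was at 32.7 and 23.2 CPM (-0.50, -1.01 to 0.02), and with the mean of per-cell CPM it was called lower there (-0.67).

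Other measures moved between the libraries in the same populations. Of the interferon list, 12 of 14 counted genes in monocytes, 11 of 14 in macrophages, 11 of 12 in T cells and 7 of 10 in NK cells were called higher in IR, with median log2 ratios of 2.02, 2.10, 2.30 and 1.26. In these lineages 3.77% to 6.22% of all genes were called higher. Of the cycling list, 11 of 11 genes were called lower in monocytes and macrophages, 7 of 7 in DCs, 4 of 11 in T cells and 1 of 11 in NK cells, where 6.43% to 10.4% of all genes were. Barcodes with at least 3 UMIs of the list went from 26.4% to 10.2% in macrophages, against 17.3% and 18.8% in NK cells. With cycling cells left out, the log2 ratio of Bbc3 was 0.59 in macrophages and 0.95 in NK cells, and that of Bax was 0.70 in T cells and 0.55 in NK cells. Median depth went from 5584 to 7660 UMIs in monocytes, from 4355 to 5174 in T cells and from 6779 to 6589 in NK cells. The part of the interferon response and of depth in the members' differences was not tested, and irradiation cannot be told apart from anything else that differed between the libraries.

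The wider death pathway was described by lists of genes chosen by function. Of the list of p53 and its targets, 3 of 10 counted genes were called higher in NK cells and 0 lower (median log2 ratio 0.43), 3 of 12 higher and 1 lower in macrophages (0.15), 1 of 7 higher in T cells (0.26) and 1 of 10 higher in monocytes (0.10). Over all genes 3.77% were higher in NK cells, 5.91% in macrophages, 4.7% in T cells and 6.22% in monocytes, and 10.4% were lower in macrophages. In lists this short a single call cannot be told apart from these rates. Cdkn1a, the p21 cell cycle inhibitor, was at 72.8 and 135 CPM in NK cells (0.89, 0.65 to 1.14) and at 84.5 and 151 CPM in T cells (0.84, 0.56 to 1.13). Phlda3, an inhibitor of AKT, had 3 UMIs in Control and 57 in IR NK cells, a log2 ratio of 3.60 (1.98 to 5.92), and 3.93 and 13.3 CPM in macrophages (1.76, 1.25 to 2.27). Sesn2 was called in monocytes (0.68, 0.21 to 1.19) and macrophages (0.72, 0.31 to 1.11). Trp53inp1 was called in macrophages (0.59, 0.05 to 1.11). Trp53 itself had log2 ratios of -0.17 in monocytes, -0.24 in macrophages, 0.33 in T cells and 0.12 in NK cells. Calls whose intervals included no difference were Zmat3 in NK cells (0.60, -0.28 to 1.54) and Gtse1, lower in macrophages (-0.71, -1.73 to 0.18), both named after their values were seen.

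The promoter of Bax is shown because it is the only one among the members in which the p53 decamer, the 10-base unit of the p53 response element, was found. In RefSeq promoter windows (GRCm38.p6, 250 bases before to 50 after the start site) 9 of the 10 members were present and 1 held the decamer, which reads the same on both strands, while 8.36% of all 32851 windows did. Among p53 and its targets 6 of 12 windows held it (Aen, Ccng1, Cdkn1a, Gtse1, Mdm2 and Trp53). The match, in capitals, lay 201 to 192 bases before the start site, and is a description of the letters only. The Bax window is chr7:45466849-45467148 on the - strand:
Bax: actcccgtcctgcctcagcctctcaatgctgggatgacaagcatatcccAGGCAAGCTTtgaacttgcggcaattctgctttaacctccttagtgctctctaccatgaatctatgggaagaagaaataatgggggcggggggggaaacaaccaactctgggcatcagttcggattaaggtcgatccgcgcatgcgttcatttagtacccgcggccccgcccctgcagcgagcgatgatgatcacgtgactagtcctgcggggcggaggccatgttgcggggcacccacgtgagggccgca

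Downstream of the mitochondria, calls were made at about the rate over all genes. Of the apoptosome, caspases and their inhibitors, 1 of 18 counted genes was called higher and 1 lower in monocytes, 0 and 1 of 19 in macrophages and 0 and 0 of 13 in T cells, beside 4.7% to 6.22% of all genes higher and 6.43% to 10.4% lower in these lineages. Casp9, the initiator of the apoptosome, was at 5.12 and 11.1 CPM in monocytes (1.12, 0.50 to 1.78). Birc5 (survivin), also on the cycling list, was lower in monocytes (-1.77) and macrophages (-0.85). None of the 7 mitochondrial partners was called in any of the 6 lineages.

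Among death receptors and adaptors, 3 of 9 counted genes were called higher in monocytes, 2 of 9 in macrophages and 0 of 8 in T and in NK cells, where 1 of 8 was lower in each. Over all genes 6.22% were higher in monocytes, 5.91% in macrophages, 4.7% in T cells and 3.77% in NK cells. Lower calls were made for 7.02% in T cells and 7.6% in NK cells, from which a single call among 8 genes cannot be told apart. Cflar, which encodes the caspase-8 inhibitor cFLIP, was at 163 and 245 CPM in monocytes (0.59, 0.47 to 0.70). Mlkl, the executor of necroptosis, was higher in monocytes (0.85, 0.49 to 1.22) and macrophages (0.92, 0.60 to 1.25). Tnfsf10, the ligand TRAIL, was higher in IR monocytes (2.02, 1.07 to 3.14) and in IR macrophages (0.87, 0.001 to 1.70, from 39 and 19 UMIs). It was lower in IR T cells (-1.15, -1.78 to -0.54) and NK cells (-1.09, -1.62 to -0.56). Of the other BH3-only and BH3-like genes, Bnip3 was called in T cells (0.98, 0.54 to 1.43) and NK cells (1.05, 0.53 to 1.60). Of the regulators of BIM and MCL1, Usp9x, a deubiquitinase of MCL1, was at 82.7 and 52.6 CPM in NK cells (-0.65, -0.94 to -0.37). Of the survival receptor chains, Il7r was called higher in monocytes (0.78, 0.58 to 0.98) and macrophages (0.91, 0.77 to 1.05), as were Il2rb (1.58, 1.201 to 1.97) and Il15ra (1.24, 0.74 to 1.77) in monocytes, and none of 3 counted chains was called in T or in NK cells.

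The genes whose log2(CPM + 10) followed a member most closely over 14 lineage and library sums were taken from 5241 genes that reached 50 CPM and were not gate markers. For Bcl2 these were Sh2d2a (r = 0.98), Gimap4 (0.98) and Gzmc (0.98), for Mcl1 Il1b (0.99), Ets2 (0.97) and Ccrl2 (0.97), for Bcl2a1b its copy Bcl2a1d (0.98), Mkrn1 (0.96) and Pde4b (0.96), and for Bcl2l1 Smox (0.92), Casp8 (0.91) and Ralgds (0.90). The leading genes were Ost4 (0.87) for Bax, Ensa (0.95) for Bak1, Tsc22d4 (0.93) for Bcl2l11, Dennd5a (0.91) for Pmaip1, Pdgfa (0.89) for Bid and Cuedc1 (0.84) for Bbc3. The points share libraries and lineages, so these values are descriptive. Between members the highest value was 0.65 for Bak1 and Bcl2l1 and the lowest -0.76 for Bcl2a1b and Bbc3.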

How the data were processed

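The authors deposited 1 unfiltered matrix for each library, which holds the UMI counts of every barcode, from the 10x Chromium 3′ kit v3.1. Per the labels they were aligned to mm10 with Cell Ranger 6.0.1, while the matrix headers name another release. Totals were 48593879 UMIs in Control and 42406461 in IR, and the total count per lineage sets the precision of each value. The 10 members and all lists were chosen with earlier results of these data known, and the cut-offs of the marker gates were set after the data were seen. A barcode entered a lineage when its marker UMIs passed a CPM and UMI minimum and those of other lineages did not, and 857 Control and 653 IR barcodes, with medians of 10521 and 13253 UMIs, stayed unplaced. Free RNA was read from barcodes of 11 to 100 UMIs. Doublets were not removed in the main sums. As an alternative the 6% with the highest Scrublet score were removed, whose automatic threshold called 0 and 1 barcodes and is taken not to have worked. Intervals are 95% exact Poisson (CPM), exact binomial (shares) and exact conditional (ratios). Genes of the lists were named when they had at least 50 UMIs, differed by 1.5-fold or more and had an interval without 1 in monocytes, macrophages, T cells or NK cells (up to 8 per direction), and the interferon and cycling genes are given as counts only. Ddit3, whose symbol stands on 2 rows, was left out. Python 3.11.15, scipy 1.17.1, scanpy 1.11.5 (clustering into 22 clusters) and edgeR 4.0.16 in R 4.3.3 (TMM factors only) were used, and the fold rule was tested on simulated data. Pmaip1 has no promoter window in the table used. 1 gene of the caspase list is not reported here.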

Additional observations from a re-analysis of the deposited data

Results flagged for a closer look

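Members whose difference between the libraries pointed in opposite directions in different lineages, each with a counting interval without 0, stand out, although with 1 library per group the difference between lineages was not tested. Bcl2l11 had a log2 ratio of IR over Control of 0.29 in macrophages and -0.24 in NK cells. Bcl2a1b had 0.21 in monocytes, 0.24 in macrophages and 0.37 in DCs against -0.27 in T cells and -0.24 in NK cells. Pmaip1 had 0.70 in T cells against -0.29 in monocytes and -0.36 in DCs. Of these, Bcl2a1b kept its signs in all 5 lineages under each alternative run, though not in every subset of DCs and T cells. Its copy Bcl2a1d was at -0.05 (-0.25 to 0.15) in T cells, and the proportions of the copies are uncertain. Pmaip1 in T cells and Bcl2l11 in macrophages each changed sign when lineages came from clusters.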

How the results depend on the processing

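No paired analysis was possible because each group had a single library, which also left no replicate to leave out. The 5 combinations of member and lineage called higher in IR became 1 (Bbc3 in NK cells) with 10 CPM added before the ratio and 0 at a fold of 2. They were 4 to 6 under the other alternatives, but not always the same ones. With lineages from clusters Bbc3 in NK cells and Pmaip1 in T cells were no longer called, and Bcl2l1 in monocytes was (0.61). Bax in T cells was called with the highest Scrublet scores removed, free RNA subtracted, cycling cells left out or TMM scaling. The 0 called lower became 1 with lineages from clusters (Bcl2a1b in collagen-expressing cells), 1 with the mean of per-cell CPM (Bid in collagen-expressing cells) and 2 at 20 UMIs per gene (Pmaip1 in NK cells and Bcl2a1b in collagen-expressing cells). With lineages from clusters, the log2 ratio of Pmaip1 in T cells reversed to -0.042, and the Bcl2 share of Bcl2 plus Bcl2l11 was 11.8% in Control and 11.9% in IR monocytes and 6.87% in IR neutrophils. Clusters and gates gave the same lineage to 81.8% of the 6331 barcodes that both named. Of the 605 log2 ratios under the alternatives, 575 stayed within the main counting interval, which is wide for members with few UMIs. A sign changed under at least 1 alternative for 20 of 55 ratios, 18 of them among the 29 whose interval included 0, and the others were Pmaip1 in T cells and Bcl2l11 in macrophages (-0.21), both from clusters. Clusters also moved 42 CPM levels (98 stayed) and 30 anti-apoptotic shares (26 stayed) out of their intervals, such as Mcl1 in Control monocytes from 62.8% to 72.7% and Bcl2a1b in Control DCs from 68.7% to 64.2%. The cause of these shifts was not tested. Bbc3 in T cells and CD8 T cells is limited by depth.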

Other observations

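The unplaced barcodes, which passed the filters but met no single gate, had Bcl2 at 72.3 CPM in Control and 97.0 CPM in IR, Bcl2l11 at 99.0 and 129 CPM, Mcl1 at 714 and 926 CPM, and Bbc3 at 15.3 and 22.6 CPM. Over all kept barcodes Bbc3 was at 13.5 CPM (561 UMIs) in Control and 21.5 CPM (812 UMIs) in IR, and Bcl2 at 51.9 and 74.6 CPM, sums that mix lineages present in different proportions.

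Neutrophils, with 35 Control barcodes, were in no comparison. Control and IR had 251 and 2372 UMIs of Mcl1, 130 and 1558 of Bcl2a1b, 7 and 107 of Bcl2l1 and 33 and 201 of Bcl2l11, from sums of 194050 and 830984 UMIs. Ly6c2, a monocyte marker, was at 923 CPM in the IR sum, and its part in these values was not tested.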
